A study of Mus musculus with 12 samples.

Results

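The genes described here are 8 transcription factors of pallial and hippocampal neurons, *Emx1*, *Emx2*, *Neurod2*, *Neurod6*, *Tbr1*, *Fezf2*, *Bhlhe22* and *Bcl11b*. They were chosen by symbol from a list of regulators of the cortex and hippocampus, and make up 8 of the 24480 genes in each count table. RNA-seq was performed on the dorsal lateral geniculate nucleus (dLGN), the visual relay nucleus of the thalamus, dissected at P0 from *Sox2* or *Nr2f1* thalamic mutants and from controls of the same line. Each of the 12 libraries was a pool of dLGNs from 3 animals, with 3 libraries in each of 4 groups. The genes are not thalamic markers, and cortical or hippocampal tissue dissected together with the dLGN would raise them together, so that they were followed library by library and in each mutant against the controls of its own line.

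*Sox2* mutants were Sox2flox/flox;Ror-alphaCre, and their controls were Sox2flox/flox or Sox2flox/+ littermates with no Cre. *Nr2f1* mutants were Nr2f1 flox/flox;Ror-alphaCre. For the *Nr2f1* controls the labels give both Ror-alphaCre and the absence of Cre. The methods of the study describe these controls as Nr2f1 flox/flox or flox/+ animals that lacked Cre, and this description was followed here. Cre was expressed from an IRES cassette knocked into *Rora*, so that the floxed gene is removed in cells with *Rora* activity, which the study places among postmitotic cells of the sensory thalamus and not in the early cortex. Control and mutant animals therefore differed in the Cre allele as well as in the deletion. The libraries of the *Sox2* line are called controls 1, 2 and 3 and mutants 1, 3 and 4 after their names in the count table, and those of the *Nr2f1* line controls B, D and E and mutants A, B and C.

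The pallium is the dorsal part of the telencephalon, which forms the cortex and hippocampus. EMX1 and EMX2 are homeobox proteins that pattern its progenitors, NEUROD2, NEUROD6 and BHLHE22 are basic helix-loop-helix (bHLH) proteins that drive the differentiation of its excitatory neurons, and TBR1, FEZF2 and BCL11B (CTIP2) set the identity of deep-layer projection neurons. BCL11B is also known from striatal projection neurons and from interneurons, and EMX2 is present outside the pallium, so that these genes are less restricted to pallial glutamatergic neurons than the NEUROD factors.

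The *Neurod2* and *Neurod6* promoters are printed because these genes gave the highest levels per transcript length among the 8 and moved together most closely across libraries, as described further on. bHLH proteins bind the E-box, CANNTG, whose matches are in capitals. RefSeq promoter sequences of GRCm38.p6 matched 7 of the 8 genes, all except *Bhlhe22*, and the windows searched ran from 250 to 11 bases before the annotated start, a length of 240 bases. *Neurod2* is read from chr11:98329656-98329895 and *Neurod6* from chr6:55681274-55681513, both on the minus strand, 5′ to 3′.
Neurod2: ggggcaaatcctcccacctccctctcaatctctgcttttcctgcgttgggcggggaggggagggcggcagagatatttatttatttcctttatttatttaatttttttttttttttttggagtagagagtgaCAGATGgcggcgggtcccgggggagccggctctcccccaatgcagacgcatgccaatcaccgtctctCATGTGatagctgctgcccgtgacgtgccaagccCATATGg
Neurod6: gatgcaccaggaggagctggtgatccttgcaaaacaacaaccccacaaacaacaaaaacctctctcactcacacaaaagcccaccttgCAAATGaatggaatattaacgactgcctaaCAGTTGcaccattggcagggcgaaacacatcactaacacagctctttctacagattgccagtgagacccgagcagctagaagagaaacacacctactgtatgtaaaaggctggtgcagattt
The *Neurod2* window held 3 matches and the *Neurod6* window 2. E-boxes were present in the windows of 4 of the 7 matched genes, the other two being *Emx1* and *Tbr1* with 1 match each, and in 65.0% of all 32841 windows of the same length. The core of the SOX motif, ACAAT, was searched on both strands and was found in 1 of the 7 windows, that of *Tbr1*, against 27.1% of all windows. The half-site of the nuclear receptor family to which NR2F1 belongs, AGGTCA, was found on either strand in 0 of the 7 and in 13.5% of all windows. None of these 3 motifs contains another. A match is a description of the letters and no evidence of binding.

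Total counts lay between 39293465 and 50095344 per library. *Sox2* and *Nr2f1*, the deleted genes, were examined first. Across the *Sox2* line, *Sox2* was at 355, 358 and 382 CPM (counts scaled to a common library size) in controls 1, 2 and 3 and at 115, 150 and 151 CPM in mutants 1, 3 and 4. *Nr2f1* was at 314, 373 and 383 CPM in controls B, D and E and at 106, 152 and 102 CPM in mutants A, B and C. Both fell in the mutants of their own line, *Sox2* by 1.40 and *Nr2f1* by 1.57 on the log2 scale (edgeR, FDR 4.83e-05 and 0.000348). Of 10 markers of thalamic glutamatergic neurons, none was at 0 in any library. Their summed level was 1775 to 2232 CPM in *Sox2* controls and 1603 to 1622 CPM in *Sox2* mutants, without overlap. At FDR<0.01, 1 of the 10 (*Gbx2*) rose while 5 (*Slc17a6*, *Lef1*, *Rora*, *Lhx9* and *Prox1*) fell, against 8.08% of all genes in either direction. In the *Nr2f1* line the summed level was 2155 to 2426 CPM in controls and 2104 to 2454 CPM in mutants. There 2 of the 10 were higher and 1 lower at FDR<0.01, against 2.54% of all genes in either direction. The part of these differences in the results for the 8 genes was not tested.

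All levels are CPM with TMM normalization over the 12 libraries, and errors of levels are SD over 3 libraries. Fold changes are mutant against control in log2 units from the quasi-likelihood fit of edgeR, made separately for each line. Their standard error (SE) was derived as the absolute log2 fold change divided by the square root of the F statistic of the test. FDR denotes the Benjamini-Hochberg adjusted p-value of that test, over all genes of the line that were tested. A gene was called at FDR<0.01, the threshold of the study. With 3 libraries against 3, an exact permutation test of 1 gene cannot give a two-sided p below 0.1. In bulk tissue, fewer cells of a type and less RNA per cell cannot be told apart, and neither can more cells and more RNA.

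All 8 genes were detected in every library and passed the filter on low counts in both lines. To compare genes with each other, levels were divided by the mean length of the RefSeq transcripts. On this scale *Neurod6* was highest, at 2.58 CPM per kb over the 6 control libraries, followed by *Neurod2* at 2.46 CPM per kb and *Bcl11b* at 2.06 CPM per kb. The ranges of these genes over the controls overlapped, at 1.41 to 4.69, 1.55 to 4.17 and 1.67 to 2.35 CPM per kb, so that their order does not exceed the spread of the libraries. *Bhlhe22* was at 1.52 CPM per kb and *Emx2* at 1.24 CPM per kb. Below them came *Tbr1* at 0.944, *Fezf2* at 0.683 and *Emx1* at 0.386 CPM per kb. Even *Neurod6* stood at the 32.3 percentile of all genes tested and *Emx1* at the 12 percentile, so that the 8 genes were expressed at low levels in these pools.

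In *Sox2* mutants all 8 genes had a higher mean than in controls, by 0.53 to 1.5 log2 units. *Bcl11b* was the 1 gene of the 8 that was called, where 8.08% of the 15602 genes tested in this line were called in either direction and 3.9% were called higher. *Bhlhe22*, *Emx2* and *Tbr1* had an FDR between 0.01 and 0.05, a range in which they were not called (4 of 8 below 0.05 with *Bcl11b*, against 19.8% of all genes). The median log2 fold change of the 8 was 1.17, against 0.000497 over all genes tested. No overlap between mutant and control libraries was seen for 3 of the 8, *Emx2*, *Bhlhe22* and *Bcl11b*, all higher in mutants, against 19.3% of all genes. For the other 5 genes the groups overlapped, and mutant 3 lay below control 1 in each of them, as did mutant 4 for *Emx1*.

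**Figure D1:**
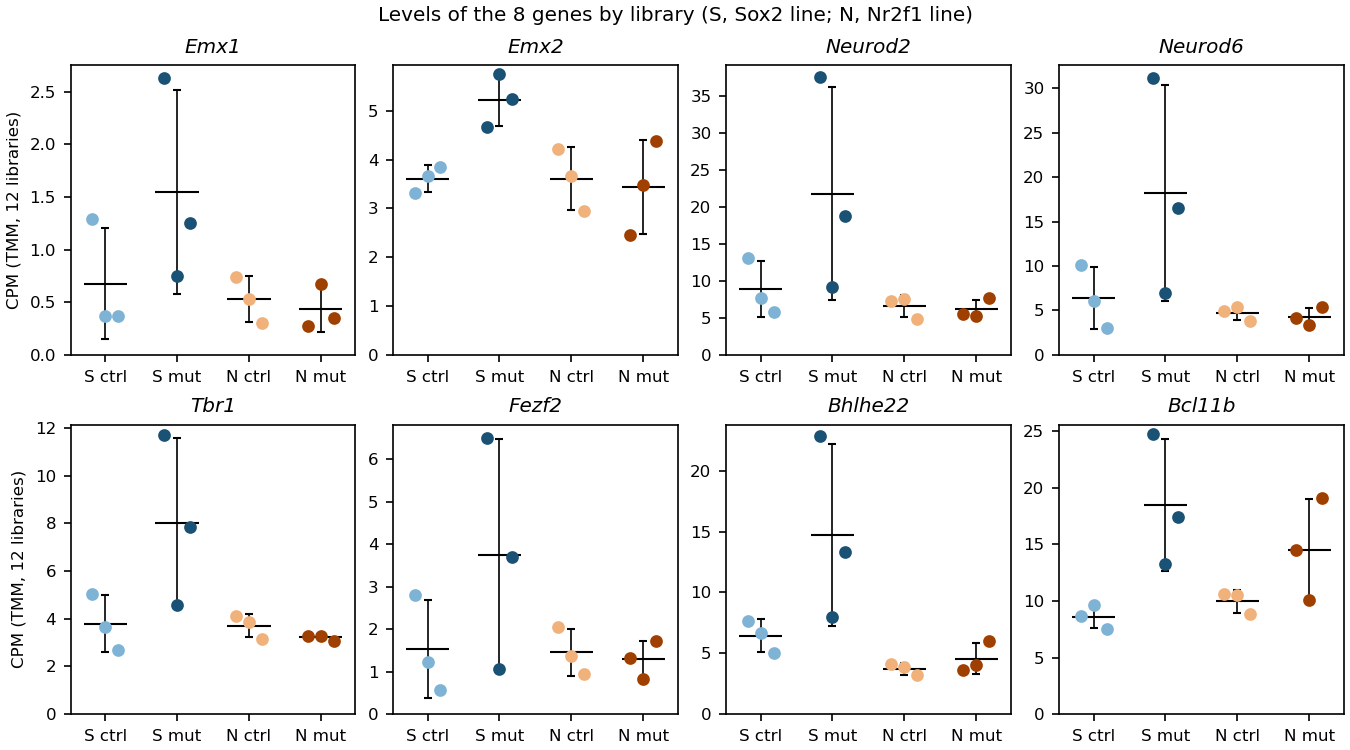
Level of each of the 8 genes in CPM (y axis, linear from 0, own scale per panel) in the 12 libraries. Points are libraries in the order of their names, bars are the mean and SD of 3 libraries, S is the *Sox2* line and N the *Nr2f1* line. Mutant 1 of the *Sox2* line was the highest of the 12 libraries for 7 genes, and the groups of the *Nr2f1* line overlapped for all 8.

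*Bcl11b* encodes a zinc finger protein of corticospinal, hippocampal and striatal neurons, and lies on chromosome 12 from 107910403 to 108003602 of GRCm38 on the minus strand. It was at 8.67, 9.62 and 7.54 CPM in controls 1, 2 and 3 and at 24.7, 13.3 and 17.4 CPM in mutants 1, 3 and 4. Every mutant library was above every control library, and mutant 1 was the highest of all. *Bcl11b* rose by 1.09 ± 0.21 log2 units (SE), with an FDR of 0.00648, that is from 8.61 ± 1.04 to 18.5 ± 5.80 CPM (n = 3 and 3). The fold change was between 0.83 and 1.28 over the 15 alternatives planned, and *Bcl11b* was called in 11 of them. These 11 include the threshold of FDR<0.05, which repeats the main fit and so could not lose the call. They also include the block by column number, which has very little replication. The call was lost when control 1, control 2, control 3 or mutant 4 was left out, with FDRs of 0.0299, 0.0206, 0.0105 and 0.0236. Calls over all genes were then 554, 494, 2161 and 495, in place of 1261, so that they rose only without control 3.

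*Tbr1*, which encodes a T-box factor of early-born and layer 6 neurons and lies on chromosome 2 from 61802930 to 61814114, was at 5.05, 3.64 and 2.69 CPM in controls 1, 2 and 3. It was at 11.7, 4.57 and 7.83 CPM in mutants 1, 3 and 4. Mutant 3 was below control 1, and the other mutants were above all controls. The log2 fold change of *Tbr1* was 1.07 ± 0.33 (SE), with an FDR of 0.0475.

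*Fezf2* encodes a zinc finger factor that specifies subcortically projecting neurons and lies on chromosome 14 from 12342094 to 12348189 (minus strand). Its levels were 2.80, 1.24 and 0.567 CPM in the 3 controls and 6.51, 1.05 and 3.69 CPM in mutants 1, 3 and 4. Mutant 3 was below controls 1 and 2. *Fezf2* was the most variable of the genes within groups, with a ratio of the highest to the lowest library of 4.94 among controls and 6.19 among mutants, and its log2 fold change of 1.27 ± 0.64 (SE) had an FDR of 0.189.

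Of the bHLH genes, *Neurod2* (chromosome 11, 98325415 to 98329648), whose E-boxes are shown above, was at 13.1, 7.73 and 5.84 CPM in controls 1, 2 and 3 and at 37.5, 9.16 and 18.7 CPM in mutants 1, 3 and 4. *Neurod6* (chromosome 6, 55677822 to 55681263) followed the same order, with 10.1, 6.10 and 3.03 CPM in the controls and 31.2, 7.02 and 16.5 CPM in the mutants. For both genes mutant 3 was below control 1, and mutant 1 was 4.09-fold (*Neurod2*) and 4.45-fold (*Neurod6*) above mutant 3. The log2 fold changes were 1.28 ± 0.45 for *Neurod2* (FDR 0.0741) and 1.5 ± 0.52 for *Neurod6* (FDR 0.0690), the largest of the 8. *Bhlhe22*, which encodes a bHLH repressor (chromosome 3, 18054174 to 18057517), was at 7.69, 6.63 and 5.0 CPM in the controls and at 22.8, 8.0 and 13.3 CPM in the mutants. Its groups did not overlap, although mutant 3 and control 1 were close, and its log2 fold change was 1.18 ± 0.33 (FDR 0.0324).

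*Emx1* (chromosome 6, 85187438 to 85204462), the homeobox gene whose activity marks the dorsal telencephalon, had the lowest counts. It had 58, 16 and 15 counts in controls 1, 2 and 3 and 109, 33 and 57 in mutants 1, 3 and 4, with exact 95% Poisson intervals of 8.40 to 24.7 for control 3 and 89.5 to 131 for mutant 1, which cover counting error only. Control 1 was above mutant 4 in CPM (1.29 against 1.25). The log2 fold change of *Emx1* was 1.16 ± 0.57 (FDR 0.178).

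*Emx2*, the homeobox gene required for the growth of the hippocampus, differed from the other genes in how its libraries were ordered. It was at 3.31, 3.67 and 3.85 CPM in controls 1, 2 and 3 and at 4.68, 5.76 and 5.23 CPM in mutants 1, 3 and 4. The groups did not overlap and the libraries within each group were close, yet mutant 3 was the highest of the 12 libraries and control 3 the highest control. Its log2 fold change, 0.53 ± 0.15 (FDR 0.0337), was the smallest of the 8. *Emx2* lies on chromosome 19 from 59458372 to 59465357 on the plus strand, and its first 264 bases overlap the antisense gene *Emx2os* (59425104 to 59458635, minus strand). Whether counting used the strand is not given in the sources used here, but *Emx2os* was at 0.251 to 0.484 CPM in the 6 libraries of the *Sox2* line, with a log2 fold change of -0.07 ± 0.38. No other gene of the GENCODE annotation overlapped any of the 8.

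**Figure D2:**
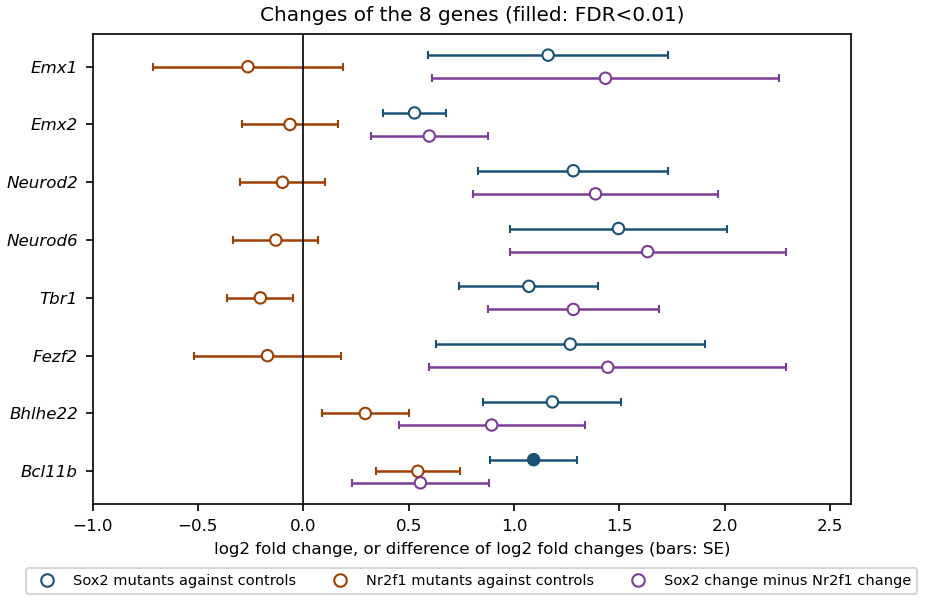
Log2 fold change of each gene in *Sox2* mutants and in *Nr2f1* mutants, and the difference between them (x axis, log2 units). Bars are the SE derived from the edgeR test. Filled symbols have FDR<0.01, which only *Bcl11b* in *Sox2* mutants reached (1.09), and the values of *Sox2* mutants were all above 0, whereas 6 of 8 in *Nr2f1* mutants were below 0.

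The 8 genes were next compared library by library. Within the *Sox2* line, mutant 1 was the highest mutant for 7 of the 8 genes and the lowest for the remaining one, *Emx2*. Mutant 3 was the lowest mutant for the same 7 genes and the highest for *Emx2*. Among controls, control 1 was the highest for 6 genes and control 3 the lowest for 7, again with *Emx2* in the opposite order. The summed level of the 8 genes was 52.0, 39 and 28.9 CPM in controls 1, 2 and 3 and 141.7, 49.6 and 84.0 CPM in mutants 1, 3 and 4. Mutant 3 was thus below control 1. The means were 91.8 ± 46.6 CPM in mutants and 40.0 ± 11.6 CPM in controls, a difference of 51.8 CPM (exact permutation test over libraries, two-sided p = 0.2, n = 3 and 3). The log2 fold changes also depended on mutant 1, without which they were 0.64 for *Neurod2*, 0.87 for *Neurod6*, 0.72 for *Bhlhe22*, 0.70 for *Tbr1*, 0.62 for *Fezf2* and 0.55 for *Emx1*. Without control 1 those of *Fezf2* and *Emx1* were both 2.04. Without mutant 1 the difference in summed level was 26.8 CPM, and leaving out any other library gave between 46.3 and 72.9 CPM. Pallial tissue in a pool and expression of these genes by cells of the dLGN cannot be told apart in these libraries.

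To describe how closely the genes varied together apart from genotype, the deviation of each library from the mean of its own group (log2 CPM) was correlated with the mean deviation of the other 7 genes. Over the 12 libraries, which share their depth and dissection between genes, Pearson's r was 0.985 for *Neurod2*, 0.956 for *Neurod6*, 0.944 for *Fezf2*, 0.938 for *Bhlhe22* and 0.937 for *Tbr1*. These values describe the libraries, and no p was computed. It was lower for *Emx1* (0.729) and *Bcl11b* (0.709) and near 0 for *Emx2* (-0.077). In the *Sox2* line alone *Emx2* ran opposite to the other genes (r = -0.994, 6 libraries), while in the *Nr2f1* line it ran with them (r = 0.802, 6 libraries). For the other 7 genes r was 0.846 to 0.999 in the *Sox2* line and lower for each in the *Nr2f1* line. There it was 0.95 for *Neurod2*, 0.86 for *Bhlhe22*, 0.79 for *Neurod6* and 0.77 for *Fezf2*. It was 0.59 for *Bcl11b*, 0.56 for *Tbr1* and 0.21 for *Emx1*.

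**Figure D3:**
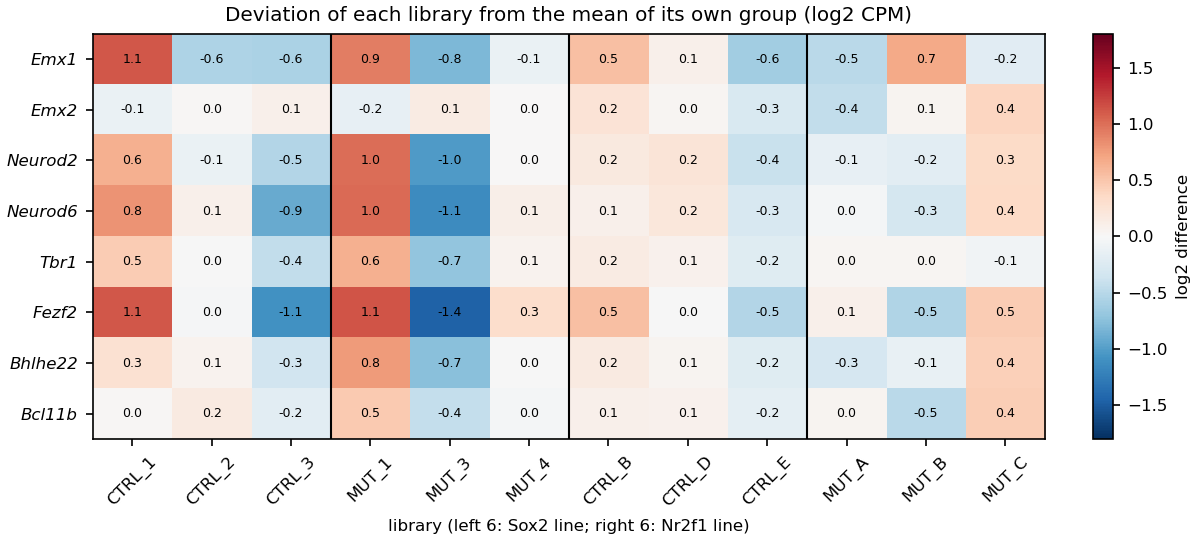
Deviation of each library from the mean of its own group (colour and printed value, log2 units of CPM) for the 8 genes (rows) in the 12 libraries (columns). Control 1 and mutant 1 of the *Sox2* line are above and control 3 and mutant 3 below their group means for most genes, and *Emx2* has small deviations of the opposite sign in this line. Control E of the *Nr2f1* line is below the mean of its group for all 8 genes.

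In *Nr2f1* mutants 0 of the 8 genes were called by edgeR, where 2.54% of the 15600 genes tested were. By DESeq2 (1108 of 14994 genes called) and by the likelihood ratio test of edgeR (1089 of 15600) 0 of the 8 were called as well. At an unadjusted p below 0.05 the count was 1 of 8, against 24.6% of all genes. The log2 fold changes were negative for 6 of the 8, from -0.26 to -0.06, and positive for *Bhlhe22* and *Bcl11b*, and their median was -0.11, against 0.01 over all genes. Mutant and control libraries overlapped for all 8 genes, whereas they did not for 28.7% of all genes.

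*Bcl11b* had the largest log2 fold change of the 8 in *Nr2f1* mutants. It was at 10.6, 10.5 and 8.81 CPM in controls B, D and E and at 14.5, 10.1 and 19.1 CPM in mutants A, B and C. Mutants A and C were above all controls and mutant B was within their range. The log2 fold change was 0.54 ± 0.20 (SE), with an FDR of 0.132. Without mutant B it was 0.75 with an FDR of 0.00731, and *Bcl11b* was then called, while calls over all genes rose from 396 to 868. Without mutant C the log2 fold change was 0.29 with an FDR of 0.413.

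For the other 7 genes of the *Nr2f1* line, mutant and control libraries overlapped, with log2 fold changes from -0.26 to 0.29. *Neurod2* was at 7.32, 7.57 and 4.87 CPM in controls B, D and E and at 5.47, 5.29 and 7.68 CPM in mutants A, B and C. *Neurod6* was at 4.94, 5.38 and 3.79 CPM in the controls and at 4.12, 3.36 and 5.40 CPM in the mutants. For both, mutant C was the highest of the 6 libraries and control E was below the other controls. *Bhlhe22* was at 4.15, 3.86 and 3.20 CPM in the controls and at 3.62, 4.06 and 6.03 CPM in the mutants, with mutant C alone above the controls (log2 fold change 0.29 ± 0.21, FDR 0.427). *Tbr1* was at 4.10, 3.88 and 3.16 CPM in the controls and at 3.29, 3.30 and 3.08 CPM in the mutants, with a log2 fold change of -0.20 ± 0.16 (FDR 0.472). Its mutant libraries lay within 1.07-fold of each other, the narrowest group of any of the 8 genes.

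*Fezf2* was at 2.04, 1.38 and 0.943 CPM in controls B, D and E and at 1.32, 0.830 and 1.71 CPM in mutants A, B and C, a log2 fold change of -0.17 ± 0.35. *Emx1* was at 0.744, 0.534 and 0.307 CPM in the controls and at 0.278, 0.677 and 0.347 CPM in the mutants (-0.26 ± 0.45). *Emx2* was at 4.22, 3.65 and 2.94 CPM in the controls and at 2.45, 3.47 and 4.38 CPM in the mutants (-0.06 ± 0.23). In all 3 genes mutants and controls were interspersed. Control E was the lowest control for all 8 genes, and mutant C was the highest mutant for 6. The summed level was 38.1, 36.8 and 28.0 CPM in the controls and 35.0, 31.1 and 47.7 CPM in the mutants, a mean of 34.3 ± 5.49 against 37.9 ± 8.69 CPM (exact permutation test, two-sided p = 0.7, n = 3 and 3). Without mutant C the difference was -1.26 CPM, in place of 3.62 CPM with all libraries.

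Whether the mutants of the 2 lines differed in these genes was tested with an interaction term in a joint fit of all 12 libraries. All 8 differences were positive, that is, the log2 fold change was higher in *Sox2* than in *Nr2f1* mutants, but 0 of 8 were called by edgeR, against 1.44% of the 15989 genes tested. At an unadjusted p below 0.05 the count was 3 of 8, against 16.2% of all genes. By DESeq2 (540 of 15366 genes called) and by the likelihood ratio test (496 of 15989) 0 of the 8 were called. The smallest FDR was that of *Tbr1*, with a difference of 1.28 ± 0.41 log2 units (FDR 0.115). The difference was largest for *Neurod6*, at 1.63 ± 0.65 (FDR 0.227), and smallest for *Bcl11b*, at 0.56 ± 0.32 (FDR 0.451).

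The other pallial genes were taken from 2 lists of 25 genes in all, 16 transcription factors and 9 effector genes of pallial neurons. Of these, 24 were in the tables under the listed symbol and 23 passed the filter in each line. In *Sox2* mutants 3 of the 23 rose and 1 fell, where 8.08% of all genes were called in either direction. The median log2 fold change of the 23 was 0.50. *Slc17a7*, which encodes VGLUT1, the vesicular glutamate transporter of cortical and hippocampal neurons, was at 9.07, 7.33 and 6.06 CPM in controls 1, 2 and 3 and at 24.8, 12.7 and 16 CPM in mutants 1, 3 and 4. All mutants were above all controls, with mutant 1 the highest and mutant 3 the lowest of them. *Slc17a7* rose by 1.24 ± 0.24 log2 units (FDR 0.00726). *Ldb2*, a LIM domain binding cofactor of corticospinal neurons, rose by 0.95 ± 0.16 (FDR 0.00396), and *Tle4*, a corepressor of corticothalamic neurons, by 0.42 ± 0.08 (FDR 0.00501). *Nrn1*, which encodes the neurite growth factor neuritin, fell by 0.71 ± 0.09 on the log2 scale (FDR 0.000823). Its level was 99.9 to 119 CPM in controls and 61.0 to 73.1 CPM in mutants, far above that of the 8 genes. The calls of *Slc17a7*, *Ldb2* and *Tle4* were lost when control 1, control 2 or mutant 4 was left out, that of *Slc17a7* also without control 3 and that of *Tle4* also without mutant 1 or mutant 3, whereas *Nrn1* was called without each of the 6 libraries in turn.

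In *Nr2f1* mutants 1 of the 23 genes rose and 1 fell, where 2.54% of all genes were called in either direction. The median log2 fold change of the 23 was 0.00538. *Nfe2l3*, which encodes a bZIP factor, rose by 1.07 ± 0.10 (FDR 0.000388), and *Mef2c*, which encodes a MADS-box factor, fell by 0.98 ± 0.09 on the log2 scale (FDR 0.000438). *Mef2c* was at 77.9 to 104 CPM in the controls of both lines, far above the 8 genes. *Slc17a7* was at 5.31 to 6.21 CPM in controls and 4.35 to 6.03 CPM in *Nr2f1* mutants, and its groups overlapped.

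Genes related in sequence to the 8 were also examined, since reads could be assigned to the wrong family member. Of 9 relatives, *Neurod4* and *Bhlhe23* did not pass the filter. In *Sox2* mutants 1 of the remaining 7 rose and 1 fell, where 8.08% of all genes were called in either direction. *Bhlhe41* rose by 1.13 log2 units (FDR 0.000854) and *Tbx21* fell by 1.38 (FDR 0.00587). *Bcl11a*, the closest relative of *Bcl11b*, was at 46.9, 44.1 and 39.2 CPM in controls 1, 2 and 3 and at 81.2, 42.9 and 64.1 CPM in mutants 1, 3 and 4, within each group the same order as that of *Neurod2*, with a log2 fold change of 0.52 (FDR 0.0820). In the *Nr2f1* line *Bcl11a* was at 35.6, 40.1 and 43.7 CPM in mutants A, B and C and at 43.0 to 43.9 CPM in controls. There 0 of the 7 relatives were called by edgeR, against 2.54% of all genes. At an unadjusted p below 0.05 the count was 2 of 7, against 24.6% of all genes.

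Markers of other cells that lie near the dLGN moved with the 8 genes in part. The 6 genes of the choroid plexus, dominated by *Ttr*, summed to 116, 40.5 and 6.98 CPM in controls 1, 2 and 3 of the *Sox2* line and to 140, 17.6 and 99.6 CPM in mutants 1, 3 and 4. Within each group of this line the order was that of the summed level of the 8 genes. None of the 6 was at 0 in any library, and 0 of 6 were called by edgeR in either line (8.08% of all genes in the *Sox2* and 2.54% in the *Nr2f1* line). At FDR<0.05 there were 0 of 6 in the *Sox2* line, against 19.8% of all genes. At an unadjusted p below 0.05 there were 3 of 6 in the *Nr2f1* line, against 24.6% of all genes. In the *Nr2f1* line the sums were 24.7 to 60.6 CPM in controls and 49.0 to 77.0 CPM in mutants. There control E had the highest sum of the controls (60.6 CPM, against 31.5 in control B and 24.7 in control D), although it was the lowest control for all 8 genes. The 6 markers of meningeal fibroblasts ran the other way in the *Sox2* line, with sums of 640, 668 and 1274 CPM in controls 1, 2 and 3 and 1006, 2198 and 1196 CPM in mutants 1, 3 and 4. Within each group this order was that of *Emx2* and the reverse of that of the summed 8 genes. It was not particular to meningeal markers, since the astrocyte and endothelial sums had the same order. The endothelial markers summed to 283, 296 and 436 CPM in controls 1, 2 and 3 and to 391, 507 and 455 CPM in mutants 1, 3 and 4. The meningeal markers summed to 514 to 779 CPM in controls and 725 to 1554 CPM in mutants of the *Nr2f1* line. None of the 6 was at 0, and 0 were called by edgeR in either line. At FDR<0.05 there were 0 of 6 in the *Sox2* line, against 19.8% of all genes. At an unadjusted p below 0.05 there were 4 of 6 in the *Nr2f1* line, against 24.6% of all genes. The part of these tissues in the results was not tested.

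For *Bcl11b*, which is also a gene of GABAergic and striatal neurons, the GABAergic markers are given beside it. *Gad1*, which encodes a GABA-synthesizing enzyme, was at 40.4, 46.7 and 34.0 CPM in controls 1, 2 and 3 and at 68.3, 52.1 and 61.7 CPM in mutants 1, 3 and 4 of the *Sox2* line. In the *Nr2f1* line it was at 39.4, 41.1 and 34.4 CPM in controls B, D and E and at 56.2, 34.7 and 71.9 CPM in mutants A, B and C. In the *Sox2* line the order of the libraries within each group was that of *Bcl11b*, and in the *Nr2f1* line mutant C was the highest and control E the lowest library for both genes. Other markers of the list did not all follow this order. *Gad2*, the other GABA-synthesizing enzyme, was lowest among *Sox2* mutants in mutant 4 (31.1 CPM, against 31.5 in mutant 3) and lowest in the *Nr2f1* line in mutant B (24.9 CPM). *Dlx1* and *Lhx6*, transcription factors of GABAergic neurons, were highest among *Sox2* controls in control 1 (6.31 and 4.69 CPM). *Gad1* was not called in either line (log2 fold change 0.58, FDR 0.0140 in *Sox2* mutants and 0.50, FDR 0.177 in *Nr2f1* mutants). Of 11 GABAergic markers, 9 were higher without overlap in *Sox2* mutants, against 19.3% of all genes, and 0 were called higher, against 3.9%. *Sp9*, the most abundant of them, fell by 1.72 log2 units, so that the sum of the list was 423 to 500 CPM in controls and 270 to 302 CPM in mutants. In the *Nr2f1* line the sums were 489 to 561 and 512 to 543 CPM, and 0 of 11 were called by edgeR, against 2.54% of all genes. At an unadjusted p below 0.05 the count was 4 of 11, against 24.6%. None of the 11 was at 0 in any library. Of 11 markers of striatal projection neurons, 1 rose and 2 fell in *Sox2* mutants (8.08% of all genes called) and 1 rose and 1 fell in *Nr2f1* mutants (2.54%). They summed to 158 to 163 CPM in *Sox2* controls and 151 to 167 CPM in *Sox2* mutants, with none of the 11 at 0. In the *Nr2f1* line the sums were 162 to 169 CPM in controls and 248 to 289 CPM in mutants. *Ebf1* alone went from a mean of 60.4 CPM in *Nr2f1* controls to 174 CPM in *Nr2f1* mutants. This was more than the rise of the mean sum, so that the higher sum is not a rise of the list as a whole. Of the 11 log2 fold changes in this line 8 were positive and 3 negative. The part of these cells in the level of *Bcl11b* was not tested.

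Glial markers did not follow the order of the summed 8 genes. The 6 microglial markers summed to 107 to 117 CPM in *Sox2* controls and 214 to 245 CPM in *Sox2* mutants, with mutant 1 the lowest mutant, and 5 of 6 rose. The 6 astrocyte markers summed to 1096 to 1248 CPM and 1646 to 1858 CPM, again with mutant 1 the lowest mutant, and 4 of 6 rose. Over all genes 3.9% were called higher in *Sox2* mutants. Within each group the order of the astrocyte sum was that of *Emx2*. The microglial and the astrocyte sum were both higher in mutant 3, in which 7 of the 8 genes were lowest among mutants, than in mutant 1.

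The genes whose deviations from their group means were most like the mean deviation of the 8 were ranked among 13953 genes with a mean of at least 1 CPM over the 12 libraries. *Meis2*, a homeobox gene, came first (r = 0.970), followed by *Ky* (0.957) and *Far1* (0.956). Among the first 10 were also *Agk*, *Agfg1*, *Nr4a3*, *Gm14391*, *Gse1* and *Sla*, down to r = 0.938. *Sla*, an adaptor protein gene of the companion lists, ranked 10, while *Slc17a7* ranked 65 (r = 0.874). *Meis2* was at 14.3, 11.6 and 10.01 CPM in controls 1, 2 and 3 of the *Sox2* line and at 32.4, 13.9 and 22.7 CPM in mutants 1, 3 and 4, with a log2 fold change of 0.93 (FDR 0.0350). *Sla* and *Nr4a3* had log2 fold changes of 1.24 (FDR 0.0316) and 1.08 (FDR 0.0812) in *Sox2* mutants. *Far1*, *Agk*, *Agfg1* and *Gm14391*, in contrast, had log2 fold changes of at most 0.15 there, *Ky* of -0.14 and *Gse1* of 0.28. A likeness within groups thus went with a difference between them for only some of these genes.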

How the data were processed

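RNA-seq of 12 dLGN pools (3 animals each, 3 libraries in each of 4 groups) was analysed. Per the methods of the study and the submitters' processing notes, the authors aligned paired reads of 75 bases with STAR to the mouse RefSeq transcriptome, estimated expression with RSEM, and name mm10 as the genome build. The authors deposited 1 table of 24480 genes a line, which holds expected counts from RSEM that had not been normalized. Rounding was needed since 7.77% of the entries were not whole. Multiply mapped reads had been divided among transcripts before deposit, which matters for related genes. Column names gave the group of each library but not which titled replicate it was.

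Genes were filtered with filterByExpr (minimum count 10, minimum total count 15) and normalized with TMM, and mutants were compared with the controls of their line with edgeR 4.0.16 in R 4.3.3 (quasi-likelihood F-test, FDR<0.01). The interaction of line and genotype was tested over all 12 libraries. Summed levels were compared by exact permutation tests over libraries, two-sided. Companion genes were named if called in either line or for the interaction, and *Slc17a7*, with some genes not reported here, whatever their values. The 10 genes most like the 8 were ranked by Pearson correlation of deviations from group means (log2 CPM, prior count 2). The gene lists, the 8 genes included, were chosen with earlier results of these data known. Positions and transcript lengths came from GENCODE vM21 (GRCm38), promoters from RefSeq. The fits were tested on simulated data with the same low spread between libraries for every gene. Most of the 8 genes had a wider spread among *Sox2* mutants, so that the simulation does not cover them. Depth was similar between libraries, so that the low counts of *Emx1* (11 to 109 per library) were the least precise. Alternatives were other filters, RLE and upper quartile normalization, DESeq2 1.42.0, the likelihood ratio test, one fit over both lines, the number in the column name as a block, FDR<0.05 and leaving out each library.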

Additional observations from a re-analysis of the deposited data

Results flagged for a closer look

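The difference between the mutants was called for 1 of the 23 companion genes tested, *Nfe2l3*, whose log2 fold change was lower by 1.46 ± 0.16 (SE) in *Sox2* than in *Nr2f1* mutants (difference -1.46, edgeR interaction term over the 12 libraries, FDR 0.000147). It was at 15.6, 13.3 and 12.5 CPM in controls 1, 2 and 3 and at 9.69, 10.3 and 11.5 CPM in mutants 1, 3 and 4 of the *Sox2* line, without overlap (log2 fold change -0.40 ± 0.12, FDR 0.0454). In the *Nr2f1* line it was at 13.2, 10.8 and 12.9 CPM in controls B, D and E and at 26.1, 27.6 and 23.8 CPM in mutants A, B and C, and all mutants were above all controls. *Nfe2l3* did not follow the 8 genes across libraries (r = 0.088 over the 12 libraries), and the cause of the difference was not tested.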

How the results depend on the processing

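For *Sox2* mutants, the number of the 8 genes called (1) was 2 with DESeq2 (*Bcl11b* and *Tbr1*) and 2 with the likelihood ratio test (*Bcl11b* and *Bhlhe22*). Over all genes the calls rose as well, from 1261 of 15602 to 2452 of 15597 and 2351 of 15602. At FDR<0.05 the number was 4, against 19.8% of all genes. It was from 0 to 2 when single libraries were left out (0 without control 1, control 2, control 3 or mutant 4, and 2 without mutant 3). The calls over all genes were then 554, 494, 2161, 495 and 906. For *Nr2f1* mutants (0) the number of the 8 genes called was from 0 to 1 when single libraries were left out (*Bcl11b*, without mutant B). For companion genes in *Sox2* mutants (4) it was 12 at FDR<0.05, 10 by likelihood ratio test, 7 by DESeq2 and from 1 to 5 with libraries left out (1 without control 1, control 2 or mutant 4), and in *Nr2f1* mutants (2) from 2 to 4 (4 without mutant B). For the interaction, 0 of the 8 genes were called and all stayed positive under the 19 alternatives planned. Leaving out single libraries turned the sign of 5 genes in *Nr2f1* mutants, with ranges of -0.74 to 0.0504 for *Emx1* (positive without control B), -0.28 to 0.13 for *Emx2* (control B or mutant A), -0.30 to 0.0157 for *Neurod2* (control D or mutant B), -0.33 to 0.0203 for *Neurod6* (mutant B) and -0.44 to 0.15 for *Fezf2* (control B or mutant B). The cause was not tested.

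Controls and mutants of the *Sox2* line share the numbers 1 and 3 in their column names, and nothing says that a number marks a shared litter or day. Deviations of same-numbered libraries correlated at 0.177 and 0.157 over 15602 genes, against -0.281 to 0.152 for the other 7 pairs of a control and a mutant. The number as a replicate block gave 6 calls among the 8 genes, 14 among the companions and 1611 over all genes, in place of 1, 4 and 1261. In that fit control 2 and mutant 4 have numbers of their own and add nothing to the fold changes. The fold changes then rest on the 2 shared numbers, and their error on very little replication. For the *Nr2f1* line no paired analysis was possible because its controls and mutants share only 1 letter. With 3 pools a group, differences of the more variable genes (SE of 0.64 log2 units for *Fezf2* and 0.57 for *Emx1*) of about their observed size were not detectable.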
